A study of Gallus gallus with 2 samples.

Results

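Distant alternative 3' splice sites are pairs of acceptor sites that compete for the same upstream exon and lie more than 12 nt apart. They were taken from a deposited table of splicing events in chicken DT40 cells, as the rows of type alternative 3' site with 2 read counts per library, after repeated rows were removed, chromosome Z was left out, and only distances (end minus start) over 12 nt were kept. This gave 1163 site pairs under 1016 gene names, which is 11.3% of the 10313 events of the table and 67.1% of its 1734 alternative 3' sites. A further 481 pairs lay within 12 nt of each other (tandem sites). DT40 is a B-lymphoblast line from the chicken bursa. One sample was SRSF10-/- (KO) and the other had the wild-type genotype (WT), both of the same line, and poly(A) RNA of each was sequenced as 1 paired-end library. The sources used here do not give how the KO line was made or whether it is 1 clone.

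At a 3' splice site the spliceosome reads a branch point, a polypyrimidine tract and a terminal AG, and where an intron offers several such acceptors the choice among them sets where the next exon starts. When the stretch between the sites is translated, a distance divisible by 3 adds or removes whole codons, whereas any other distance shifts the reading frame. SRSF10 belongs to the serine/arginine-rich (SR) proteins, which bind RNA in exons and introns and influence which sites are used. The events were compared to find those spliced differently without SRSF10.

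The listed reads summed to 2022343 in the KO library and 2047625 in the WT library over all events, and to 131348 in KO and 132980 in WT over the distant sites. SRSF10 itself had 0 rows, so the KO label was not checked with its target gene. Of 12 B-lymphocyte markers, 8 had a listed event, among them CD79B, EBF1 and IKZF1, and of 8 erythroid and fibroblast markers 0 had one. Of 6 T-lymphocyte markers, CD3D and CD8A had events and the other 4 had none. The CD3D event held 759 reads in KO and 69 in WT, the CD8A events 108 in KO and 80 in WT, and no T marker held a distant 3' site. The part of this difference in the results below was not tested. The table gives no expression levels.

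Distances ran from 13 to 23170 nt, with a median of 46 nt and quartiles of 26 and 104.5 nt, and 55 pairs were over 1000 nt apart. Distances divisible by 3, called in frame below, made up 508 of the 1163 pairs (43.7%), while a remainder of 1 was left by 340 (29.2%) and a remainder of 2 by 315 (27.1%). This share was 50.6% at 13 to 30 nt (195 of 385), 43.5% at 31 to 100 nt (208 of 478), 35.6% above 100 and up to 300 nt (58 of 163) and 34.3% over 300 nt (47 of 137). Short distances were therefore in frame more often than long ones in this list. Among the tandem sites the share was 51.8% (249 of 481). A total of 41 pairs lay exactly 15 nt apart, against 18 at 14 nt and 16 at 16 nt, and 37 lay 27 nt apart, against 12 at 26 nt and 11 at 28 nt. Other peaks were smaller, with 34 pairs at 18 nt, against 16 at 17 nt and 25 at 19 nt. At 24 nt there were 28, against 25 at 23 nt and 12 at 25 nt.

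**Figure D1:**
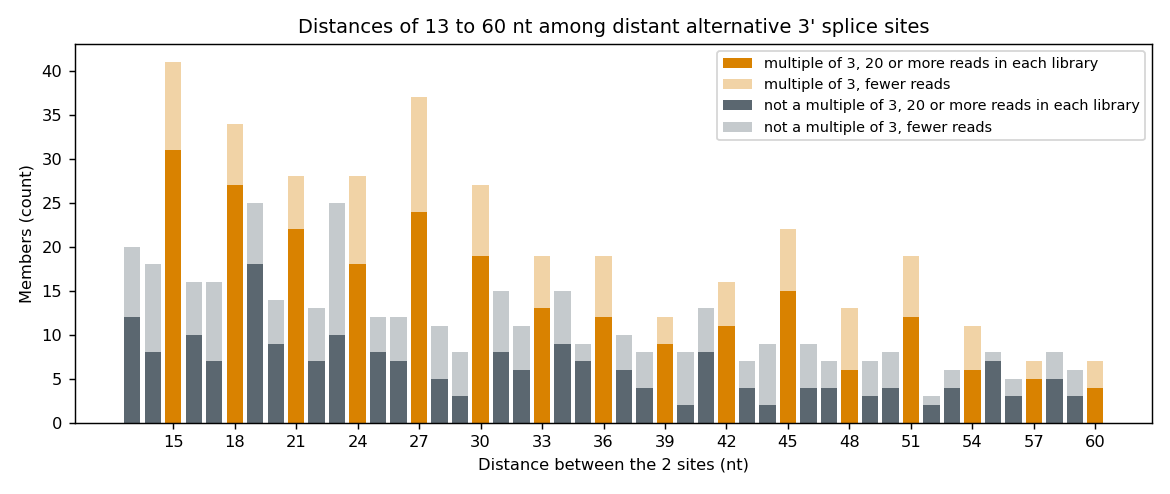
Number of site pairs (vertical axis) at each distance from 13 to 60 nt (horizontal axis). Orange bars are distances divisible by 3 and grey bars the others; the dark part of a bar counts pairs with 20 or more reads in each library. The bars at 15, 18, 21, 24, 27 and 30 nt hold 31, 27, 22, 18, 24 and 19 such pairs.

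Site use was read as the listed inclusion level, the percent of an event's reads that the table lists as inclusion. The file headers define these reads for exons only and list no strand, so whether inclusion stands for the upstream or the downstream acceptor is not stated here, and directions below are those of the listed level. Differences are KO minus WT in percentage points, and ranges in parentheses are 95% intervals (Clopper-Pearson for levels and shares, Newcombe for differences). They cover counting error only, of reads for levels and differences and of pairs for shares of pairs. For a site with 0 reads, the share that 3 counts of the total would make is given as the share allowed, which is below the Clopper-Pearson upper bound drawn in the plot of changed pairs (7.89% against 9.25% for RAB24 in WT, and 10.7% against 12.3% for BPTF in KO). Positions are in the galGal4 build as listed, and codon numbers hold only where the stretch between the sites is translated. At least 20 reads in each library were available for 679 pairs (58.4%) under 607 gene names. These had a median of 80 reads in KO (quartiles 42.5 and 179) and 77 in WT (42 and 185.5). Of the 484 others, 351 were under 20 reads in both libraries, 67 in KO only and 66 in WT only. Distances divisible by 3 made up 50.5% of the tested pairs (343) and 34.1% of those not tested (165 of 484), so the 2 sets differ in frame.

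Most tested pairs used mainly 1 acceptor in each library. The less used site held at least 10% of the reads in 239 of the 679 pairs in KO (35.2%, 31.6 to 38.9) and in 244 in WT (35.9%, 32.3 to 39.7). By frame, both sites were used in 148 of 343 in-frame pairs in KO and also 148 in WT (43.1%, 37.8 to 48.6, in each). Among the 336 pairs with a distance not divisible by 3, both sites were used in 91 in KO (27.1%, 22.4 to 32.2) and 96 in WT (28.6%, 23.8 to 33.7). The intervals of the frame classes did not overlap in either library, while those of KO and WT overlapped almost wholly within each class. These intervals treat pairs as independent, though several pairs can come from the same gene, and KO and WT cover the same pairs. The difference between the frame classes was not tested. The median share of the less used site was 7.86% in KO and 7.69% in WT for in-frame pairs, and 3.10% in KO and 3.30% in WT for the others. A single acceptor held all reads in 59 in-frame pairs in KO (17.2%) and 57 in WT (16.6%), and in 89 of the other pairs in KO (26.5%) and 78 in WT (23.2%).

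The frame classes also differ in depth, with a median of 91 reads in KO and 93 in WT for in-frame pairs, and 70.5 in KO and 67 in WT for the others. Pairs were therefore also grouped by the smaller of their 2 read totals. With 200 or more reads, both sites were used in 41.5% of in-frame pairs in KO and 40.2% in WT (82 pairs), and in 15.3% of the others in KO and 13.6% in WT (59 pairs). With 50 or more but under 200 reads the shares were 43.9% in KO and 45.9% in WT in frame, and 22.7% in KO and 26.5% in WT out of frame. With 20 to 49 reads they were 43.4% in KO and 41.6% in WT in frame, and 35.9% in KO and 36.6% in WT out of frame. The gap between the frame classes was thus wider in the deeper groups. By distance, in-frame pairs used both sites in 46.1% in KO and 46.8% in WT at 13 to 30 nt, against 26.0% in each library out of frame. At 31 to 100 nt the shares were 37.5% in KO and 35.3% in WT in frame, and 23.4% in KO and 24.8% in WT out of frame. Above 100 and up to 300 nt they were 54.3% in each library in frame, and 33.3% in KO and 37.8% in WT out of frame. Over 300 nt they were 41.9% in KO (24.5 to 60.9) and 48.4% in WT (30.2 to 66.9) in frame. Out of frame they were 34.0% in KO (21.2 to 48.8) and 36% in WT (22.9 to 50.8). The in-frame share was higher in every distance class. The intervals of the frame classes separated only at 13 to 30 nt, in KO at 37.7 to 54.7 in frame and 17.9 to 35.5 out of frame. They overlapped in both libraries in each longer class, widely over 300 nt. At 31 to 100 nt they were 29.4 to 46.2 in frame and 16.6 to 31.3 out of frame in KO. Tandem sites had the same order, with 51.4% in KO and 56.3% in WT in frame (142 pairs), and 20.3% in each library out of frame (138 pairs).

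**Figure D2:**
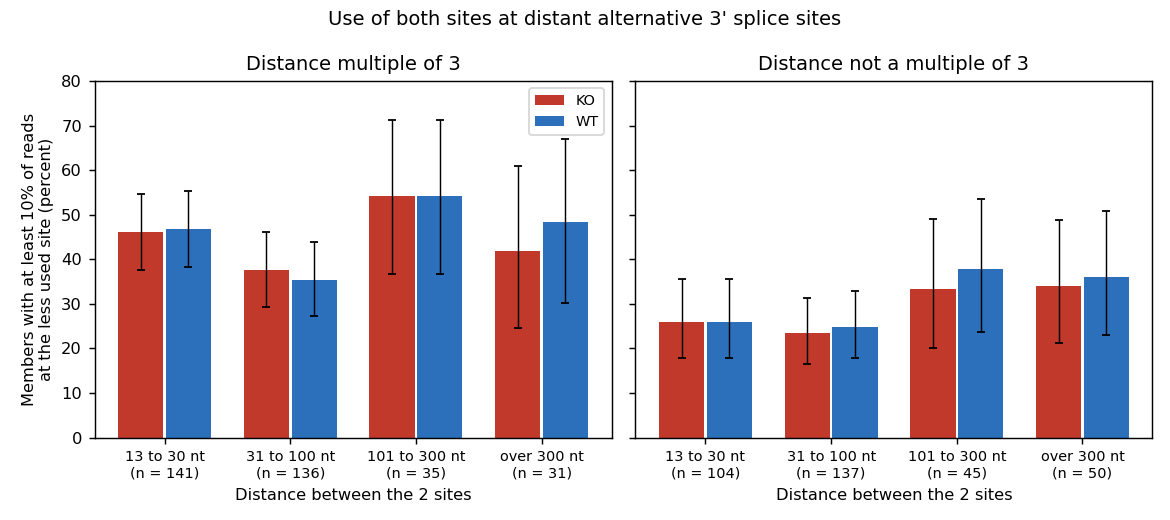
Share of tested pairs (percent, vertical axis) whose less used site held at least 10% of the reads, by distance class (horizontal axis), for distances divisible by 3 (left) and not (right). Red bars are KO and blue bars WT, and black lines are 95% Clopper-Pearson intervals. In-frame pairs of 13 to 30 nt stand at 46.1% in KO and 46.8% in WT, against 26.0% in each library out of frame.

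The pairs with the most reads among those that used both sites and were not called changed are given as examples of balanced pairs, and since they were picked as not changed, their small differences are a description only. SERBP1, an mRNA-binding protein found on ribosomes, has 2 acceptors 24 nt (8 codons) apart on chr8:27581723-27581747. Its inclusion level was 47.1% in KO (45.5 to 48.7; 3795 reads) and 46.5% in WT (44.8 to 48.2; 3376 reads), a difference of 0.58 points (-1.73 to 2.90). HNRNPH1, a splicing regulator that binds G-rich RNA, stood at 44.7% in KO (1594 reads) and 46.1% in WT (1759 reads) for sites 21 nt apart. TPX2, a spindle assembly factor, had 33.2% in KO (1087 reads) and 35.4% in WT (887 reads), also at 21 nt. Out of frame, EIF4G2, a translation initiation factor, had sites 46 nt apart used at 21.5% in KO (755 reads) and 25.6% in WT (820 reads), and LOC100858798, a gene with no symbol, stood at 16.3% in KO and 16.1% in WT for 70 nt. All 5 differences had intervals within 10 points of 0 on either side. A pair in TRIP13, an ATPase of the mitotic checkpoint, differed more. Its sites lie 3322 nt apart and stood at 48.5% in KO (699 reads) and 39.3% in WT (862 reads). The difference was 9.17 points (Fisher's exact adjusted p = 0.00815), under the 10 points required below. The TRIP13 stretch also overlaps a listed event of another type and shares an end with such an event.

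Over the 679 tested pairs the inclusion level was higher in KO in 325, lower in 318 and equal in 36, with a median difference of 0 points, against 0.05 points over all 6089 tested events. The median absolute difference was 2.48 points, against 2.28 for tandem sites and 2.36 for all tested events. It stayed under 5 points in 473 pairs (69.7%) and reached 10 points in 98 (14.4%), against 16.1% of tandem sites and 15.1% of all tested events. The distant sites as a whole thus shifted about as much between the libraries as other events did. The site with more reads was a different one in KO and WT in 22 pairs (3.24%).

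A pair counted as changed where Fisher's exact test (two-sided, on its 4 read counts) gave an adjusted p under 0.05 over all tested events and the levels differed by at least 10 points. With 1 library per genotype this compares the reads of 2 libraries, not the genotypes, and no call has a replicate check. Of the 679 pairs 30 were changed (4.42%, 3.0 to 6.25), at 29 positions, against 5% of tandem sites (14 of 280) and 4.70% of all tested events. Of the 679 pairs, 16 were changed with higher listed inclusion in KO, against 151 such changed events among all 6089 tested (2.48%). Another 14 of the 679 were changed with lower inclusion in KO, against 135 of the 6089 (2.22%). As parts of the 679, both counts lie near these shares of the whole table. The median difference was 18.6 points for the 16 and -22.2 points for the 14. By frame, 19 of 343 in-frame pairs changed (5.54%; 11 higher and 8 lower) and 11 of 336 others (3.27%; 5 higher and 6 lower). By distance, 8 of 245 changed at 13 to 30 nt (3.27%), 7 of 273 at 31 to 100 nt (2.56%), 5 of 80 above 100 and up to 300 nt (6.25%) and 10 of 81 over 300 nt (12.3%), the last at 9 of 80 positions. All 5 changed pairs above 100 and up to 300 nt were in frame, out of 35 such pairs, against 0 of 45 out of frame. Differences between these classes were not tested.

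The 2 libraries differed by more than counting error alone would give. Over all alternative 3' sites, the median Pearson chi-square of the read counts was 2.18 times its value under counting error. Over the distant pairs alone it was 1.84 times that value (286 pairs with expected counts of at least 5). The p of each exact test was turned into its chi-square, which was divided by the factor of its event type. With this division, by 2.18 for the distant pairs, 12 of the 30 pairs kept the call (1.77% of 679). This compares with 9 of 280 tandem sites, a larger share than that of the distant pairs, and with 56 of all 6089 tested events (0.920%). The factor was set per event type, so the 0.920% covers events divided by factors that can differ from 2.18. The factor came from the same KO and WT counts, without replicates. It therefore cannot tell noise between libraries from differences of genotype. The 12 pairs were BCLAF1, LOC100858086, SGTA, RAB24, KIF11, DNMT1 and NUP214, which were higher in KO, and BPTF, EPB41, MKI67, CDK13 and PFN2, which were lower. BCLAF1 and LOC100858086 among them are the same position. By distance, the call was kept by 3 of 245 pairs at 13 to 30 nt and 2 of 273 at 31 to 100 nt. It was kept by 3 of 80 above 100 and up to 300 nt and by 4 of 81 over 300 nt. The last 4 include both rows of the BCLAF1 position. The adjusted p after this division is given below as the corrected p.

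**Figure D3:**
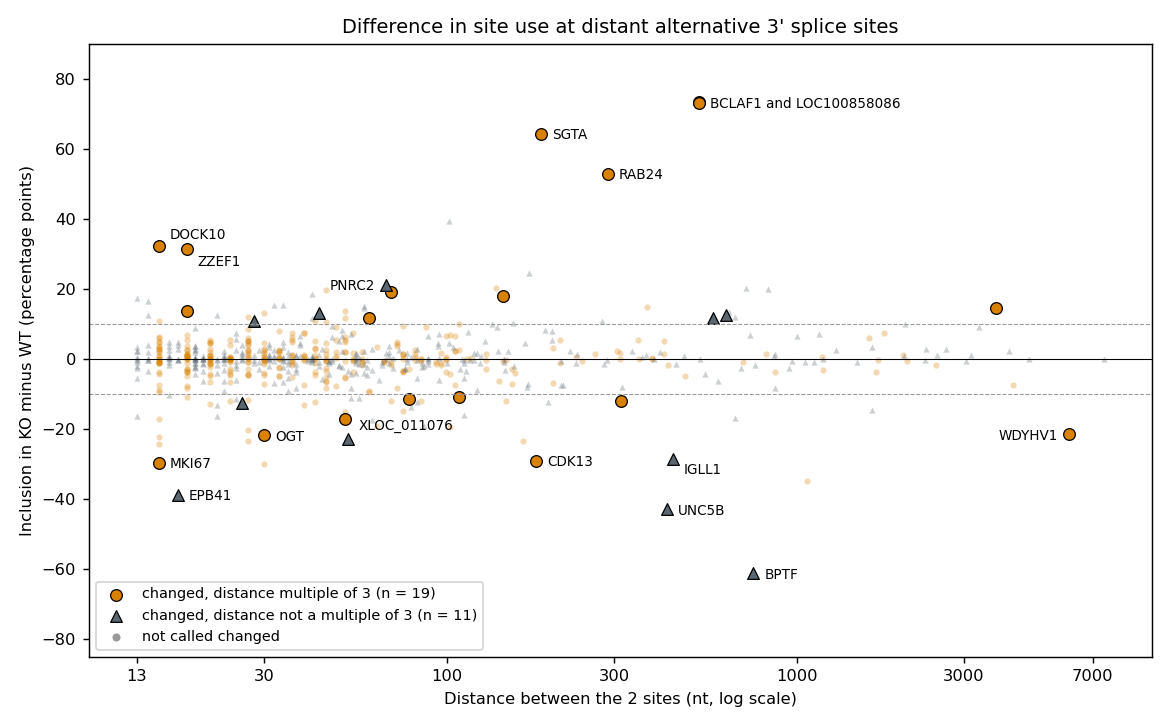
Difference in listed inclusion, KO minus WT in percentage points (vertical axis), against the distance between the sites in nt (horizontal log axis), for 679 tested pairs. Large orange circles are the 19 changed in-frame pairs, large grey triangles the 11 changed others, and small pale marks the pairs not called; dashed lines mark 10 points. BCLAF1 stands highest at 73.3 points and BPTF lowest at -61.2 points.

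The widest difference lay in BCLAF1, an arginine/serine-rich protein linked to transcription and RNA processing, where the sites on chr3:54492761-54493286 are 525 nt (175 codons) apart. Inclusion was 92.9% in KO (91 of 98 reads; 85.8 to 97.1) and 19.6% in WT (27 of 138 reads; 13.3 to 27.2). The main acceptor was thus a different one in each library, with a difference of 73.3 points (63.2 to 80.1). Fisher's exact test gave an adjusted p of 9.00e-29, and the corrected p was 1.97e-12. The same position is listed again as LOC100858086, at 88.9% in KO (99 reads) and 15.8% in WT (133 reads). The 2 rows cover 1 position and are not separate evidence. A cassette exon and an undefined event of BCLAF1 with enough reads differed by 0.76 and -0.13 points and were not called.

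RAB24 and SGTA used in KO an acceptor that had no reads in WT. RAB24, a small GTPase linked to autophagy, has sites 288 nt (96 codons) apart on chr13:9529264-9529552, and inclusion was 53.0% in KO (133 of 251 reads; 46.6 to 59.3) and 0 of 38 reads in WT, which allows up to 7.89%. Its adjusted p was 7.85e-10 by Fisher's exact test, with a corrected p of 5.69e-04. In SGTA, a co-chaperone of newly made membrane proteins, the sites on chr28:3151339-3151525 are 186 nt (62 codons) apart. Inclusion was 64.3% in KO (36 of 56 reads; 50.4 to 76.6) and 0 of 21 reads in WT, which allows up to 14.3%. The adjusted p was 4.92e-06 by the same exact test and the corrected p 0.0256. Both pairs had fewer reads in WT than in KO, and the SGTA call rests on the fewest WT reads of the 12 that kept it.

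KIF11 and DNMT1 each had a minor acceptor in WT that had no reads in KO. KIF11, the kinesin that pushes spindle poles apart, has sites 69 nt (23 codons) apart on chr6:20278320-20278389. All 212 reads were inclusion reads in KO, against 198 of 245 in WT (80.8%, 75.3 to 85.6; Fisher's exact adjusted p = 2.92e-12, corrected p = 4.91e-05). A second KIF11 pair, 2505 nt apart, stood at 97.2% in KO and 99.0% in WT and was not called. DNMT1, the maintenance DNA methyltransferase, has sites 43 nt apart on the unplaced contig JH375489, from 6859 to 6902, a distance that is not divisible by 3. All 326 reads were inclusion reads in KO, against 251 of 289 in WT (86.9%, 82.4 to 90.5; adjusted p = 1.20e-11 by the same exact test, corrected p = 9.37e-05). The minor acceptor could hold up to 1.42% of the KIF11 reads and 0.920% of the DNMT1 reads in KO. Another DNMT1 pair, 108 nt apart, stood at 29.7% in KO and 27% in WT.

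NUP214, a nucleoporin of the cytoplasmic face of the pore, gained a minor acceptor 28 nt away on chr17:6113839-6113867. It held 31 of 282 reads in KO (11.0%, 7.59 to 15.2) and 0 of 262 in WT, which allows up to 1.15% (Fisher's exact adjusted p = 6.80e-08, corrected p = 0.00427). The same counts, 31 in KO and 0 in WT, stand as the exclusion reads of an alternative 5' site of NUP214 on chr17:6110190-6110239, which was also called. These calls rest on equal counts and are not separate evidence.

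The other 9 increases, with adjusted p-values of 3.84e-05 to 0.0339 by Fisher's exact test, lost the call with the correction (corrected p = 0.0624 to 0.875). ZZEF1, named for its ZZ zinc fingers and EF hand, had 31.4% inclusion in KO (16 of 51 reads; 19.1 to 45.9) and 0 of 59 in WT for sites 18 nt apart. DOCK10 stood at 90.6% in KO (53 reads) and 58.3% in WT (24 reads) at 15 nt. Its WT value rests on 24 reads (36.6 to 77.9), and 2 further DOCK10 pairs with more reads were at 98.6% and 100% in KO, against 95.7% and 97.5% in WT. PNRC2, which takes part in mRNA decapping, stood at 92.5% in KO (67 reads) and 71.3% in WT (150 reads) at 67 nt. CRKL, an adaptor protein of tyrosine kinase signalling, had inclusion reads alone in KO (80 reads) and 86.3% in WT (197 reads) at 18 nt. RNF41, an E3 ubiquitin ligase, was at 98.4% in KO (127 reads) and 86.6% in WT (119 reads) at 60 nt.

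Longer distances among these 9 included RBM33, an RNA-binding protein, with sites 144 nt apart on chr2:7999722-7999866. It was at 50.3% in KO (195 reads; 43.0 to 57.5) and 32.2% in WT (264 reads; 26.6 to 38.2), and its adjusted p by Fisher's exact test was 0.00330 (corrected p = 0.396). A pair of RBM33 at 24 nt used its minor site in 1.26% of reads in KO and 4.67% in WT and was not called. PUF60, which binds polypyrimidine tracts at 3' splice sites, was at 48.3% in KO (429 reads) and 36.4% in WT (415 reads) for sites 577 nt apart. Its read totals, 429 in KO and 415 in WT, are also those of a cassette exon row that overlaps it. SYNGR1, a synaptic vesicle protein, was at 80.7% in KO (233 reads) and 68.2% in WT (286 reads) at 626 nt. The small GTPase RAB8A, of membrane traffic, was at 96.7% in KO (213 reads) and 82.0% in WT (206 reads) at 3708 nt.

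Among the decreases, BPTF had the widest. BPTF is the large subunit of the NURF chromatin remodeller, and its sites on chr18:6971991-6972742 are 751 nt apart. Inclusion reads were 0 of 28 in KO, which allows up to 10.7%, against 41 of 67 in WT (61.2%, 48.5 to 72.9; Fisher's exact adjusted p = 1.96e-07, corrected p = 0.00656). The acceptor used most in WT thus had no reads in KO, where coverage was lower. A cassette exon of BPTF was also changed, in the other direction, at 42.4% in KO and 26.9% in WT.

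EPB41, the band 4.1 protein that ties spectrin and actin to the membrane, has sites 17 nt apart on chr23:2578012-2578029. The minor site held 0 of 99 reads in KO, which allows up to 3.03%, and 12 of 31 in WT (38.7%, 21.9 to 57.8). The adjusted p was 4.32e-07 by Fisher's exact test and the corrected p 0.00861. MKI67, the Ki-67 protein of proliferating cells, has sites 15 nt (5 codons) apart on chr6:32893586-32893601. Inclusion fell to 88 of 125 reads in KO (70.4%, 61.6 to 78.2), against all 77 in WT (adjusted p = 1.96e-07 by the same exact test, corrected p = 0.00656). In KO a second MKI67 acceptor thus held 37 reads that WT lacked, where up to 3.90% would have gone unseen.

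CDK13, a kinase of the RNA polymerase II tail, has sites 180 nt (60 codons) apart on chr2:50540721-50540901. Inclusion was 30.1% in KO (50 of 166 reads; 23.3 to 37.7) and 59.2% in WT (119 of 201 reads; 52.1 to 66.1), so that the main acceptor differed between the libraries. Its adjusted p was 2.78e-06 by Fisher's exact test and its corrected p 0.0202. A CDK13 pair at 68 nt had 2.04% in KO and 0 of 45 reads in WT and was not called. PFN2, a profilin that binds actin monomers, had the most reads of all changed pairs. Its sites on chr9:23219868-23220183 are 315 nt (105 codons) apart, and inclusion was 25.7% in KO (279 of 1086 reads; 23.1 to 28.4) and 37.5% in WT (431 of 1149 reads; 34.7 to 40.4). PFN2 differed by -11.8 points (-15.6 to -7.98), with an adjusted p of 1.79e-07 by the exact test and a corrected p of 0.00649.

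The other 9 decreases, with adjusted p-values of 6.09e-05 to 0.0312 by Fisher's exact test, lost the call with the correction (corrected p = 0.0779 to 0.840). UNC5B, a netrin receptor, had 0 of 32 inclusion reads in KO and 15 of 35 in WT (42.9%, 26.3 to 60.6) for sites 424 nt apart, while another UNC5B pair, at 33 nt, stood at 63.0% in KO (414 reads) and 60.8% in WT (503 reads). The immunoglobulin lambda-like IGLL1 had 0 of 43 in KO and 6 of 21 in WT for 442 nt. OGT, the enzyme that adds O-linked N-acetylglucosamine to proteins, was at 19.6% in KO (153 reads) and 41.3% in WT (150 reads) at 30 nt. WDYHV1, an amidase that acts on N-terminal glutamine, was at 7.25% in KO (69 reads) and 28.8% in WT (80 reads) at 6000 nt. TIAL1, an RNA-binding regulator of splicing and translation, was at 57.6% in KO (184 reads) and 74.8% in WT (210 reads) at 51 nt.

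Smaller decreases were listed for SMEK2, a regulatory subunit of protein phosphatase 4, at 78.8% in KO (491 reads) and 90.3% in WT (464 reads) for 78 nt, and for TOMM40L, a relative of the mitochondrial import pore, at 6.41% in KO (156 reads) and 18.9% in WT (127 reads) for 26 nt. SPTAN1, the nonerythroid alpha spectrin, had 0 of 110 inclusion reads in KO and 15 of 140 in WT (10.7%) for 108 nt. Its counts of 0 in KO and 15 in WT are also the exclusion reads of 2 undefined events of the gene. A further undefined event of the gene lists 2 exclusion reads in KO and 15 in WT. The unnamed locus XLOC_011076 stood at 77.3% in KO (44 reads) and at 59 of 59 reads in WT for 52 nt.

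**Figure D4:**
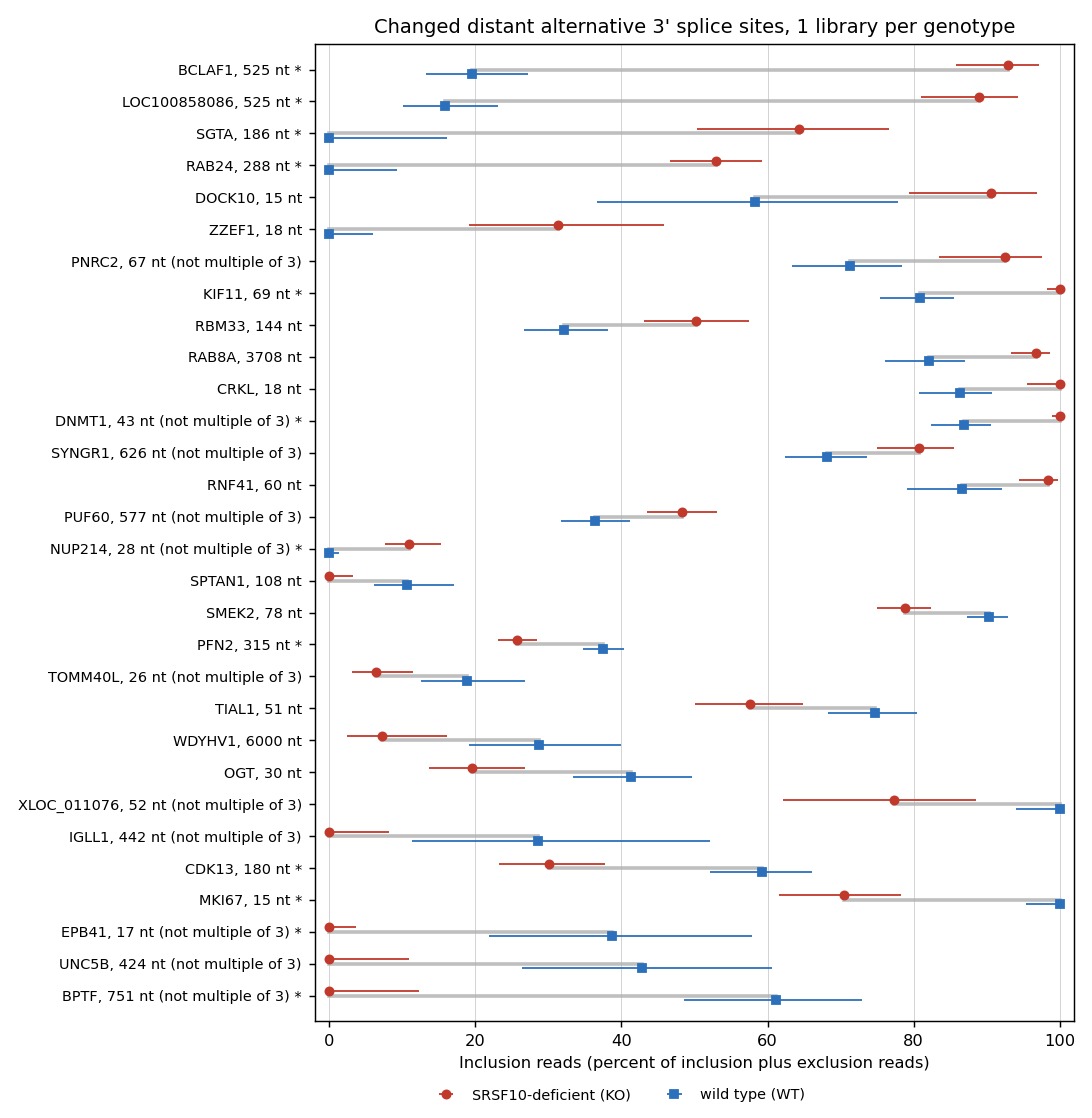
Listed inclusion (percent, horizontal axis) of the 30 changed pairs, ordered from the widest increase in KO to the widest decrease, with the distance between the sites in nt. Red circles are KO and blue squares WT, coloured lines are 95% Clopper-Pearson intervals, grey bars join the libraries, and an asterisk marks the 12 pairs that kept the call with the correction. The 2 rows of the BCLAF1 position stand at 92.9% and 88.9% in KO, against 19.6% and 15.8% in WT.

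In 14 of the 30 changed pairs 1 site alone had reads in one of the libraries, 8 in KO and 6 in WT. Among all 679 tested pairs this held for 148 in KO (21.8%) and 135 in WT (19.9%), 33 of them in both libraries. The main acceptor differed between the libraries in 7 of the 30, which were RBM33, CDK13, SGTA, RAB24, BPTF and both rows of the BCLAF1 position. In RBM33 the KO library had 98 inclusion and 97 exclusion reads, so its main acceptor in KO rests on 1 read, and the KO interval of RAB24 (46.6 to 59.3) also includes 50%. The changed pairs had a median of 126 reads in KO and 139 in WT. In 20 of the changed genes a further 54 tested events of any type were listed, of which 6 were called (11.1%, against 4.70% of all tested events), in BPTF, MKI67, NUP214, SPTAN1 and, for 2 events, IGLL1. The NUP214 event is the 5' site with the same 31 and 0 reads as the changed pair. Both IGLL1 events list 41 exclusion and 2 inclusion reads in KO and 15 exclusion reads in WT. The changed IGLL1 pair also lists 15 exclusion reads in WT. The 6 calls are therefore not all separate evidence. Counts can also repeat across event types without a call. All 4 counts equalled those of an alternative 5' site of the same gene in 23 tested pairs, for example in AHCTF1, UBR4 and EP300. Of these 23, 0 were changed, against 4.42% of all 679 tested pairs. With 23 pairs, a count of 0 lies near that share.

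A further 5 pairs passed the adjusted p of the exact test but differed by under 10 points, TRIP13 among them. USP5, a deubiquitinase, used its minor site 87 nt away in 10.3% of reads in KO and 1.10% in WT (adjusted p = 5.93e-06 by the exact test). XPO5, the exporter of microRNA precursors, was at 89.2% in KO and 98.3% in WT for 23 nt. The nucleolar proteins TCOF1 and NOLC1 differed by 2.31 and -1.81 points.

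In the 4 lists of RNA-processing genes together, 4 of 28 tested pairs were changed (14.3%), against 4.42% of all distant pairs and 4.70% of all tested events, and 1 of the 4, BCLAF1, kept the call with the correction. The lists were chosen with results of these data known, so these shares are a description only. Of 12 tested pairs in genes of heterogeneous nuclear ribonucleoproteins and other RNA-binding regulators, RBM33 was higher, TIAL1 was lower and 10 were not called, with a median difference of -0.57 points against 0 over all distant pairs. The pairs not called included NONO, at 86.0% in KO and 88.7% in WT, and FXR1, at 65.8% in KO and 64.6% in WT. Among 7 tested pairs in spliceosome and 3' site recognition genes PUF60 was higher and 6 were not called (median -0.59). SR and SR-related proteins held 2 tested pairs, of which BCLAF1 was higher and the kinase SRPK1, with inclusion reads alone in both libraries, was not called. In the listed genes of RNA export, end processing and decay 0 of 7 were called (median 0). The changed PNRC2, which takes part in mRNA decapping, is in none of these lists. The counts therefore hold for the listed genes only.

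The cytoskeleton list held 10 tested pairs, of which EPB41, PFN2 and SPTAN1 were lower, 0 were higher and 7 were not called. Thus 3 of 10 changed, against 4.42% of all distant pairs and 4.70% of all tested events, with a median of -0.08 points. The lists of this paragraph were also chosen with results of these data known, so their shares are a description only. In the cytoskeleton list EPB41 and PFN2 kept the call with the correction, and SPTAN1 lost it. The spindle kinesin KIF11, which was higher in KO by 19.2 points, is not in this list. The direction within the list therefore does not extend to cytoskeletal genes outside it. Chromatin regulators had 9, with DNMT1 higher, BPTF lower and 7 not called (22.2% changed, median 0.02), and both calls were kept with the correction. Lymphocyte signalling and transcription genes had 11, with DOCK10 higher, a call lost with the correction, and 10 not called (9.09% changed, median 1.96). One of the 10 was BLNK, the B-cell linker protein, at 1205 of 1205 inclusion reads in KO and 1168 inclusion reads beside 1 exclusion read in WT. In the ubiquitin list 0 of 25 were called (median -0.43), in DNA replication and repair 0 of 10 (median 1.84), and in translation 0 of 3 (median 0.15). The changed RNF41, an E3 ubiquitin ligase, is not in the ubiquitin list. The 0 of 25 therefore holds for the listed genes only.

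The authors' deposited table lists an adjusted p under 0.05 for 17 of the 1163 distant pairs (1.46%), against 1.67% of all listed events. Of these, 14 had 20 or more reads in each library, and 12 of the 14 were among the 30 changed pairs. Among these 17 distant pairs, the smallest value in the authors' deposited table was 6.97e-04, for CDK13. It was followed among the changed pairs by 0.00780 for RAB24 and 0.00819 for PNRC2. Of the 12 pairs that kept the call with the correction, 6 were under 0.05 in the authors' deposited table and 6 were not. The 6 that were not are SGTA (0.650), PFN2 (0.400), BPTF (0.248), KIF11 (0.15), NUP214 (0.15) and DNMT1 (0.0847). Among the 10 changed pairs over 300 nt, only the rows of the BCLAF1 position were under 0.05 in the authors' deposited table. The test behind the authors' values is not given in the sources used here.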

How the data were processed

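Reads were aligned with TopHat2 2.0.6 against galGal4, and Cufflinks was used, per the submitters' processing notes. Which program called the splicing events is not stated in the sources used here. The authors deposited 1 table with exclusion and inclusion read counts per event and library (raw, not normalized, per the file headers) and an adjusted p-value. Of 10652 rows, 10376 had 2 numbers per library, and 63 repeats (same position, counts and type) were removed. Fisher's exact test (two-sided) was run on every event that had 20 or more reads in both libraries, and p-values were adjusted across all events by Benjamini and Hochberg's method. For the correction, the p of each exact test was turned into its chi-square, which was divided by a factor for the event type. The factor was how far the type's median Pearson chi-square exceeded counting error (at least 1), from events with expected counts of at least 5.

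The text names the 3 widest changes per direction in each of 8 classes of frame and distance, changed genes of 10 lists, pairs that kept the correction, and the 3 unchanged balanced pairs with most reads per frame. Together these were all 30 changed pairs. The pairs and lists were chosen with earlier results of these data known. Other names (USP5, XPO5, TCOF1, NOLC1, SRPK1, NONO, FXR1, BLNK, AHCTF1, UBR4, EP300 and those under other observations) were chosen after their values were seen. Of 1016 gene names 824 (81.1%) matched a current symbol. The design assumed plain counts, and the cells, which hold both counts as text, were split. The alternatives changed the minimum reads, difference, p threshold, read weight, spread correction, test, rows per position or gene, distance and minor share. Without pairs equal to a 5' site was added after seeing the data. Tests ran in SciPy 1.17.1 and NumPy 2.4.6 under Python 3.11.15, tables in pandas 2.3.3 and figures in matplotlib 3.10.9.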

Additional observations from a re-analysis of the deposited data

How the results depend on the processing

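The 30 changed pairs (4.42% of 679) became 16 (2.36%) with a minimum difference of 20 points and 14 (2.06%) with reads divided by 2. They became 12 (1.77%) with the correction for spread and 14 (2.06%) by the adjusted p in the authors' deposited table. With 1 event per gene, 14 of 319 tested pairs were changed (4.39%), a share near that of the main setting. The count ranged from 23 to 35 in the other settings. These were other read minimums, no minimum difference, an adjusted p of 0.01, 1 row per position, and distances over 24 nt. Another left out the 23 pairs equal to a 5' site, a choice made after seeing the data. The number of tested pairs differed among these settings, and the shares ran from 3.53% to 5.46%. Their shares over all tested events are not given here. No pair reversed its direction, but the alternatives reuse the same read counts, whole or divided by 2. They therefore could not test the direction. BCLAF1, LOC100858086, RAB24, CDK13, EPB41 and MKI67 kept the call in every alternative in which they were tested, while the correction ended it for 18 pairs. Use of both sites in in-frame pairs was 58.6% in KO and 55.7% in WT with a minor share of 5%, and 28.6% in KO and 28.3% in WT with 20%. Out of frame it was 38.4% in KO and 42.3% in WT with 5%, 13.4% in KO and 17.3% in WT with 20%, and 20.4% in KO and 22.5% in WT with at least 50 reads. No paired analysis was possible because each genotype has 1 library. Depth limits pairs under 20 reads, which were not tested.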

Other observations

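The authors' deposited table lists an adjusted p under 0.05 for 3 distant pairs that had too few reads to be tested here. One is the unnamed gene ENSGALG00000004133, with sites 23 nt apart on chr23:5573373-5573396. Its inclusion reads were 1 of 19 in KO (5.26%, 0.13 to 26.0) and 46 of 46 in WT. CERS5, a ceramide synthase, had 10 of 16 in KO (62.5%, 35.4 to 84.8) and 0 of 8 in WT for sites 234 nt apart. PNPLA6, the neuropathy target esterase, had 5 of 15 in KO (33.3%, 11.8 to 61.6) and 0 of 26 in WT for 164 nt. Of 256 untested pairs with at least 5 reads in each library, 4 differed by 50 points or more.

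Some wide differences missed the threshold of the exact test. TMEM216, a protein of the ciliary transition zone, had 21 inclusion and 6 exclusion reads in KO, against 10 and 16 in WT. TXNL4B, a thioredoxin-like splicing protein, had 13 inclusion and 9 exclusion reads in KO, against 30 and 2 in WT, for 1071 nt. TP53BP1, a DNA damage response protein, had 6 inclusion and 36 exclusion reads in KO, against 19 and 24 in WT, for 30 nt. Their adjusted p-values by Fisher's exact test were 0.0792, 0.0658 and 0.0623. CIRH1A and SLC1A4 passed 0.05 in the authors' deposited table, with 0.0418 and 0.0361, and differed by 18.7 and -13.7 points here, with exact adjusted p-values of 0.0678 and 0.833.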
